A study of Mus musculus with 30 samples.

Results

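The 9 genes described here, Egr1, Egr2, Egr3, Ier2, Ier3, Nr4a1, Dusp1, Zfp36 and Btg2, are immediate early and stress genes outside the AP-1 family. They were taken by name, as listed, out of 21820 protein-coding genes of the mouse annotation, and all 9 passed the filter on low counts in every comparison. The study asked how mouse brain endothelial cells (ECs) change when they are taken out of the animal and grown in culture, and these genes also bear on how the cells fared during dissociation. RNA-seq covered 14 libraries and ATAC-seq, which maps accessible chromatin, covered 10. Acute ECs (2 RNA-seq libraries) were GFP-positive cells of adult homozygous Tie2-GFP mice, in which a Tie2 (Tek) promoter drives GFP in ECs. What the study calls adult brain ECs combines data of ECs from cerebrum and from cerebellum, the latter published earlier. Brains of these mice were dissociated with papain, myelin was removed, and viable cells were sorted by FACS. GFP-negative cells (2 libraries) were sorted from such suspensions and hold the remaining cell types of the brain.

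WT cultures (6 libraries) were primary brain ECs grown for 8 days in medium with serum and growth factors after selection with puromycin, which spares ECs because they pump it out. Replicates 1 and 2 came from C57BL/6J mice by method A, a papain digestion, and replicates 3 to 6 from Ctnnb1flex3/+;Tie2-GFP mice by method B, Dounce homogenization followed by collagenase/dispase. These Ctnnb1flex3/+;Tie2-GFP mice had received 4HT (4-hydroxytamoxifen) but carried no Cre. Stabilized cultures (4 libraries) were grown the same way from Ctnnb1flex3/+;Pdgfb-CreER;Tie2-GFP mice treated with 4HT, in which the Pdgfb-driven CreER removes a piece of beta-catenin that marks it for degradation, in ECs. In RNA-seq, replicates 1 and 2 of the stabilized cultures were made by method A and replicates 3 and 4 by method B. In ATAC-seq, stabilized replicates 1 and 2 were made by method B. ATAC-seq WT replicates 1 and 2 were made by method A and replicates 3 to 6 by method B. For RNA-seq WT replicates 5 and 6 the sources conflict: the study's methods name method B, a figure legend method A. The methods were followed, since they also tie method B to the genotype on the records of these wells. All mice were adult males, brains of several mice were pooled for a culture, and replicates of a culture were wells, 2 from each experiment. For cultures, the p-values therefore measure the spread between wells and experiments, not between animals. For acute ECs and GFP-negative cells they rest on the spread between 2 sorted libraries per group. Same-numbered libraries of these groups may come from the same sort and were not taken as pairs. Where a fit holds a single culture experiment per genotype and method, the spread among its cultures is that between wells only. Sorted cells were sequenced as single reads, cultures as paired reads, so that read type and culture cannot be told apart.

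Immediate early genes are transcribed within minutes of a stimulus, before any new protein is made, by factors such as SRF and CREB that already sit in the cell, and their mRNAs are usually short-lived. Egr1, Egr2 and Egr3 encode zinc finger transcription factors, and Nr4a1 an orphan nuclear receptor. Ier2 and Ier3 encode small proteins induced by growth factors and stress. Dusp1, a phosphatase that turns off MAP kinases, Zfp36 (tristetraprolin), which speeds the decay of mRNAs with AU-rich elements, and Btg2, an antiproliferative regulator of mRNA deadenylation, act as brakes on the response. Enzymatic dissociation of tissue is known to induce genes of this class.

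RefSeq promoter sequences (GRCm38.p6) were matched for 6 of the 9 genes: Egr2, Ier3, Nr4a1, Dusp1, Zfp36 and Btg2. Egr1, Egr3 and Ier2 were not matched. The promoters of Egr2 (chr10:67537619-67537868, plus strand), Nr4a1 (chr15:101266596-101266845, plus strand), Dusp1 (chr17:26508520-26508722, minus strand) and Btg2 (chr1:134079156-134079405, minus strand) are shown because they hold the binding motifs of the factors named above. Each is written 5′ to 3′ on the strand of the gene, and ends before the annotated transcript. Capitals mark a CArG box (the SRF motif), the cAMP response element TGACGTCA (the CREB motif) or its part TGACG on either strand.
Egr2: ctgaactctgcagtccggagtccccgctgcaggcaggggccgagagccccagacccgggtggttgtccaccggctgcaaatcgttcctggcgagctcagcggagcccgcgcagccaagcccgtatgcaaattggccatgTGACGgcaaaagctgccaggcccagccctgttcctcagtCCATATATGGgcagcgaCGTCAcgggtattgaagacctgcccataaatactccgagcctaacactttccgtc
Nr4a1: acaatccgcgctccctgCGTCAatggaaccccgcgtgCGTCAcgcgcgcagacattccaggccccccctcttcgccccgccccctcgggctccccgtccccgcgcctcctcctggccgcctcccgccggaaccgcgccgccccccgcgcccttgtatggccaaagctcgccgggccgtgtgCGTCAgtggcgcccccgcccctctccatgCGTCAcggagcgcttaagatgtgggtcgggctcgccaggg
Dusp1: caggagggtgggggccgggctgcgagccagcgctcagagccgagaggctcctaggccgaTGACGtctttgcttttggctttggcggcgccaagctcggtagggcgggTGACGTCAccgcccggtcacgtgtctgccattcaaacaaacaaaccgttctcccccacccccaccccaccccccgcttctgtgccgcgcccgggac
Btg2: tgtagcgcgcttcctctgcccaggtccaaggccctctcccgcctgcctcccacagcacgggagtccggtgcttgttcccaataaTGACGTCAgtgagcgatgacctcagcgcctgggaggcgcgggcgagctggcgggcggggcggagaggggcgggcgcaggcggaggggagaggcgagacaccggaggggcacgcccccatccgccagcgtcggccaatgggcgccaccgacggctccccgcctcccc

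These motifs were searched on both strands in the 250 bases before the RefSeq start. A TGACG within a TGACGTCA was counted for both. A CArG box stood in Egr2, 72 bases before the start, and in Zfp36, 58 bases before it, so in 2 of the 6 promoters, against 1.4% of 27025 promoters in all. TGACGTCA stood in Dusp1 and in Btg2, 143 and 166 bases before the start, against 1.62% of all promoters. TGACG stood in 4 of the 6, Egr2, Nr4a1, Dusp1 and Btg2, against 17.9%. Nr4a1 held it 4 times. The AP-1 motif TGANTCA and the EGR motif GCGTGGGCG stood in none of the 6 (6.87% and 0.54% of all promoters), which says only that these letters are not in this window.

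The genes have no common position in the genome (GRCm38, GENCODE M21). Egr1 lies on the plus strand at chr18:34859823-34864984, Egr2 on the plus strand at chr10:67535475-67542188 and Egr3 on the plus strand at chr14:70077203-70082614. Ier2 is on the minus strand at chr8:84661331-84662852 and Ier3 on the plus strand at chr17:35821684-35822923. Nr4a1 is on the plus strand at chr15:101254269-101274795, Dusp1 on the minus strand at chr17:26505590-26562128, Zfp36 on the minus strand at chr7:28376784-28380253 and Btg2 on the minus strand at chr1:134075170-134079120.

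Total counts per RNA-seq library ranged from 24284843 to 94686456, so counting error is small except for Egr2 and Egr3, which had 50 to 604 and 17 to 1660 counts. The deposited TPM (a level per transcript length, relative to the library total) is shared out among all transcripts, and nuclear protein-coding genes held only 26.5% to 63.1% of it, except in WT replicates 3 and 4, where they held 94.3% and 94.1%. Most of the rest was short noncoding RNA and, in the sorted libraries, mitochondrial RNA. Levels are therefore given as rescaled TPM, which takes nuclear protein-coding genes alone as the total of each library, a choice made after the values were seen. WT replicates 3 and 4, prepared at another facility with longer reads, stood apart from the other wells in this way, and results that rest on them are given by experiment. The defining EC markers Pecam1, Cdh5, Cldn5, Kdr, Tek and Erg were above 0 in every culture and acute EC library. They summed to a rescaled TPM of 4102 to 5424 in acute ECs, 1655 to 4181 in WT cultures, 2410 to 5425 in stabilized cultures and 12.5 to 64.2 in GFP-negative cells.

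Ier3, Dusp1 and Btg2 were the most abundant of the genes in culture, and Nr4a1 had the highest mean in acute ECs, above Dusp1 in replicate 2 (341 against 305) but below it in replicate 1 (127 against 139). The mean rescaled TPM of Nr4a1 was 234 ± 151 (SD, n = 2) there, which put it at ranks 457 and 1691 among protein-coding genes in the 2 libraries, and at ranks 6236 to 8185 in the WT cultures. Egr2 and Egr3 were low everywhere, at a rescaled TPM of 0.32 to 11.1. The sum over the 9 genes was 634 to 1449 in acute ECs, 367 to 505 in GFP-negative cells, 654 to 1028 in WT cultures and 775 to 1295 in stabilized cultures. The range of acute ECs overlapped that of both kinds of culture.

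**Figure D1:**
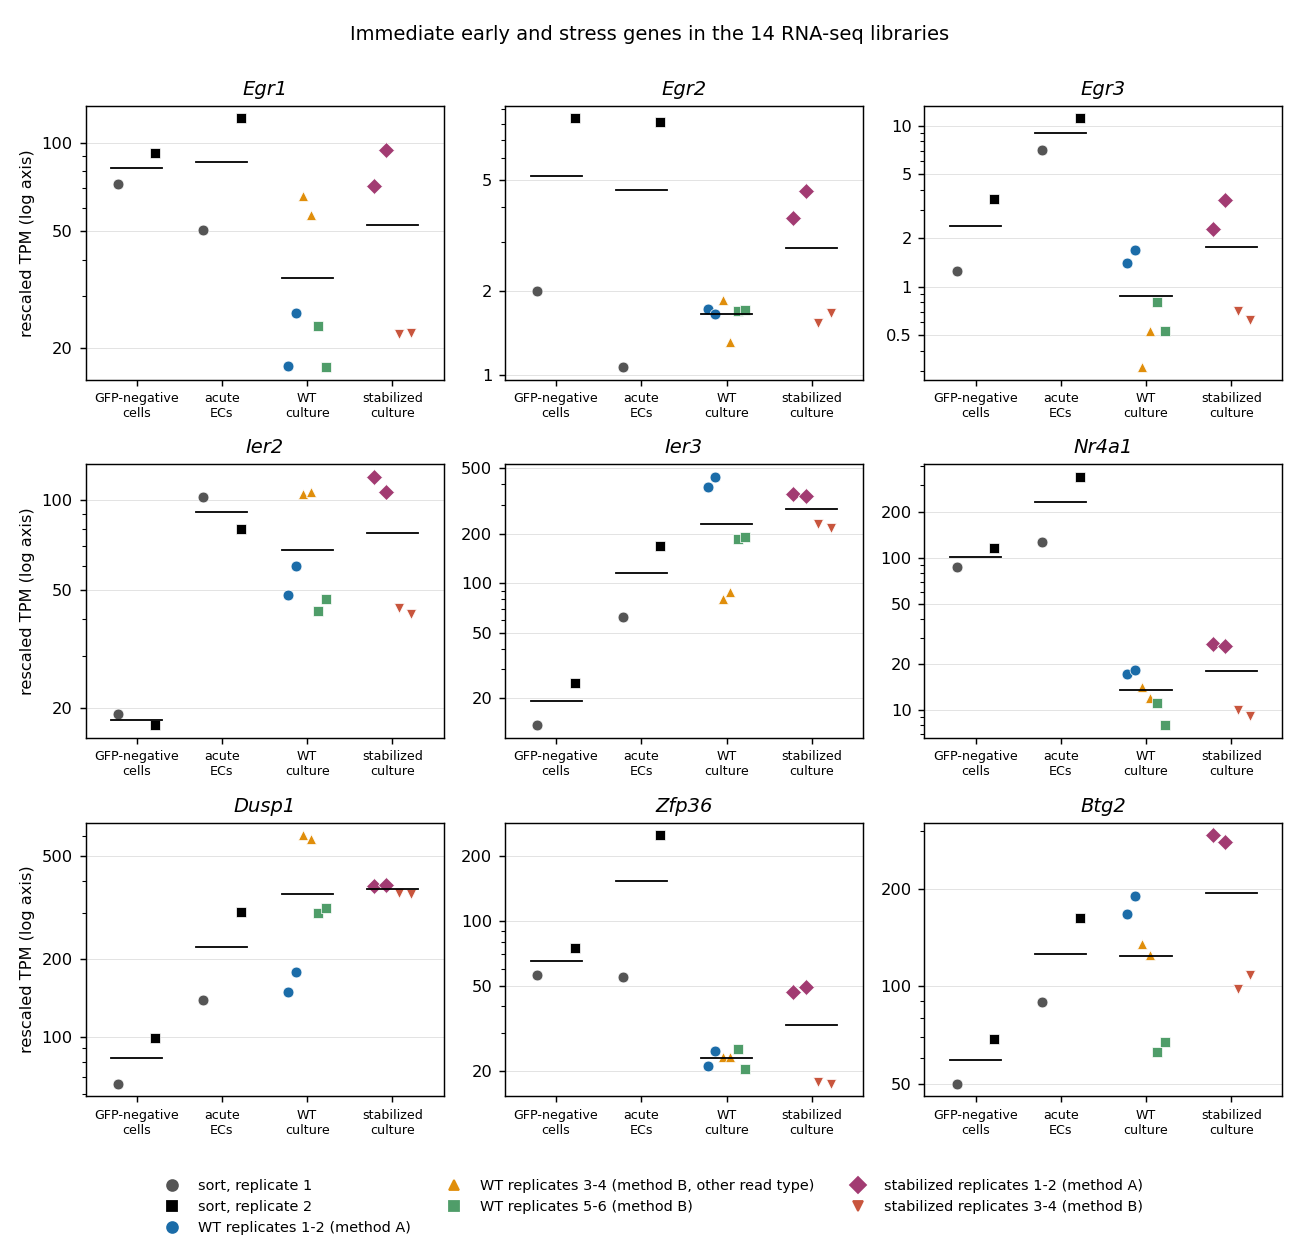
Rescaled TPM of each gene (y axis, log scale) in the 14 RNA-seq libraries by group (x axis), with 1 symbol per library, shaped by replicate pair and isolation method, and lines at the group means. Nr4a1 and Egr3 lie higher in both acute EC libraries than in every culture well, Ier3 and Dusp1 do not, and acute EC replicate 2 lies above replicate 1 for 8 of the 9 genes.

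The first comparison set WT cultures, after 8 days, against acute ECs, which had just been dissociated and sorted. Induction during dissociation and sorting and a change in culture cannot be told apart here. Nr4a1 and Zfp36 were lower in every culture experiment, Nr4a1 by 3.69 on the log2 scale over all wells. Egr3 had the most negative change, -4.41, at a level too low to be called. Egr1 and Ier2 were lower in culture by read counts, but were not called once the length of the transcripts was taken into account. Ier3, Dusp1 and Btg2 were not called over all wells, and their experiments differed from each other. Of the 9 genes, 0 were called higher and 4 (Egr1, Ier2, Nr4a1 and Zfp36) lower, where 13.5% and 10.2% of 13784 genes tested were called higher and lower. Calls needed an adjusted p under 0.05, a change over 2-fold and a deposited TPM of 5 or more in each library of the higher group. All adjusted p come from the quasi-likelihood test of edgeR, adjusted by Benjamini-Hochberg over all genes tested, and fold changes are log2 differences of counts ± SE. The median change was -1.17 for the 9 genes and 0.10 for all genes tested.

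Nr4a1 had a rescaled TPM of 127 and 341 in the acute EC libraries, and 7.97 at the lowest, 13.2 at the median and 18.5 at the highest in the 6 WT wells. Both acute libraries were far above all wells. The log2 change was -3.69 ± 0.25 (adjusted p = 3.99e-05). It was -3.50 against WT replicates 1 and 2, -3.66 against replicates 3 and 4 and -3.94 against replicates 5 and 6. With an offset for transcript length, which uses the effective lengths that Salmon gave each library, it was -4.09. Nr4a1 was called lower under all 24 alternative settings of this comparison.

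The Egr genes are read in the same way. Egr1, the best known of them as a first responder to serum and injury, had a rescaled TPM of 50.6 and 121 in acute ECs and 17.3, 26.3, 66.2, 56.9, 23.7 and 17.2 in WT replicates 1 to 6. Replicates 3 and 4 lay above acute EC replicate 1, so the groups overlapped. The log2 change of counts was -2.40 ± 0.47 (adjusted p = 0.00357), and Egr1 was called lower in each of the 3 experiments, between -2.96 and -1.69. With the length offset it was -1.28 ± 0.57 (adjusted p = 0.0925) and not called. Egr3, which is induced by growth factors such as VEGF in ECs, had a rescaled TPM of 7.03 and 11.1 in acute ECs and 0.32 to 1.68 in the WT wells, with a median of 0.67. Its groups did not overlap, its log2 change was -4.41 ± 0.57 (adjusted p = 0.000569) and -3.41 ± 0.54 with the length offset (adjusted p = 0.0013). It missed the call only because its deposited TPM was under 5, and it was called with the minimum set on rescaled TPM. Egr2 was at 1.07 and 8.14 in acute ECs and 1.31 to 1.85 in the wells, so that on this scale all wells lay between the 2 acute libraries. The 8.14 rests on 100 counts and an effective length of 262 bases, against 2810 in acute EC replicate 1 and 2553 to 3110 in the wells. Counts relative to the library total did not place all wells between the acute libraries. The log2 change of Egr2 was -0.19 ± 0.41 (adjusted p = 0.718).

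The acute EC libraries held 1660 and 1568 counts of Egr3, of which 0% and 3.82% fell on transcripts with a retained intron. In the WT wells, with 17 to 85 counts, 57.5% to 100% did, and in the stabilized wells 25.4% to 82.2% of 50 to 264 counts. The largest share of Egr3 counts went to a retained-intron transcript in all 6 WT wells and to a coding transcript in acute ECs. The 95% Wilson interval of this share in the WT well with fewest counts, replicate 3, reached down to 81.6%, and such intervals cover counting error only.

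Zfp36 had a rescaled TPM of 54.8 and 252 in acute ECs, a wide gap, and 20.3, 23.2 and 25.3 at the lowest, median and highest of the 6 WT wells. Both acute libraries lay above every well. The log2 change was -3.00 ± 0.40 (adjusted p = 0.000653), and -2.68 with the length offset. It was -1.73 without acute EC replicate 2 and -3.69 without replicate 1, and was called lower both times. On rescaled TPM, 3 of the 9 genes (Egr3, Nr4a1 and Zfp36) lay lower in all wells than in both acute libraries, where 25.0% of genes tested did, and 0 higher, where 28.3% did.

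Ier2 had a rescaled TPM of 103 and 79.8 in acute ECs. WT replicates 3 and 4, at 105 and 106, lay above both, and the other 4 wells, at 42.5 to 60.4, lay below both. The log2 change of counts was -1.17 ± 0.27 (adjusted p = 0.00767), but -0.47 ± 0.45 (adjusted p = 0.415) with the length offset. Without acute EC replicate 1 the change of counts had an adjusted p of 0.0586 and was not called. Ier3 had a rescaled TPM of 62.8 and 169 in acute ECs, 386 and 444 in WT replicates 1 and 2, 80.1 and 88.0 in replicates 3 and 4 and 185 and 190 in replicates 5 and 6. The experiments were further apart from each other than the wells of an experiment were. The log2 change was 0.79 ± 0.67 (adjusted p = 0.357) over all wells. It was 1.59 ± 0.44 (adjusted p = 0.0398, called higher) against replicates 1 and 2 and -0.46 ± 0.45 against replicates 3 and 4.

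Dusp1 had a rescaled TPM of 139 and 305 in acute ECs. It was at 148 and 178 in WT replicates 1 and 2, 603 and 583 in replicates 3 and 4 and 302 and 315 in replicates 5 and 6. The log2 change over all wells was 0.28 ± 0.63 (adjusted p = 0.736), and the experiments differed in direction: -1.10 ± 0.24 (adjusted p = 0.0216, called lower) against replicates 1 and 2 and 1.04 ± 0.21 (adjusted p = 0.0138, called higher) against replicates 3 and 4. The isoforms of Dusp1 differed too. Transcripts with a retained intron took 77.8% of its 14580 counts in acute EC replicate 1 and 15.7% of 14277 in replicate 2, and 34.4% and 42.2% in GFP-negative cells. They took 23.8% and 21.6% in WT replicates 1 and 2 and 0.56% to 5.91% in the other WT wells. Most Dusp1 counts in acute EC replicate 1 were thus assigned to transcripts that are not protein-coding.

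Btg2 had a rescaled TPM of 89.3 and 163 in acute ECs. It was at 166 and 190 in WT replicates 1 and 2, 135 and 125 in replicates 3 and 4 and 62.8 and 67.4 in replicates 5 and 6. The log2 change over all wells was -0.33 ± 0.43 (adjusted p = 0.546), and -1.21 ± 0.25 (adjusted p = 0.021, called lower) against replicates 5 and 6. The 3 genes Ier3, Dusp1 and Btg2 were ordered differently in each culture experiment, with Ier3 leading in replicates 1 and 2 and Dusp1 in replicates 3 to 6. Across the WT wells, Egr1, Ier2 and Dusp1 lay higher in replicates 3 and 4 than in all 4 other wells, and Egr3 and Ier3 lower. Of the 11601 genes that reached a deposited TPM of 5 in some library, 27.5% lay higher and 31.4% lower. Egr2 and Egr3 did not reach it and are not among those 11601 genes.

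**Figure D2:**
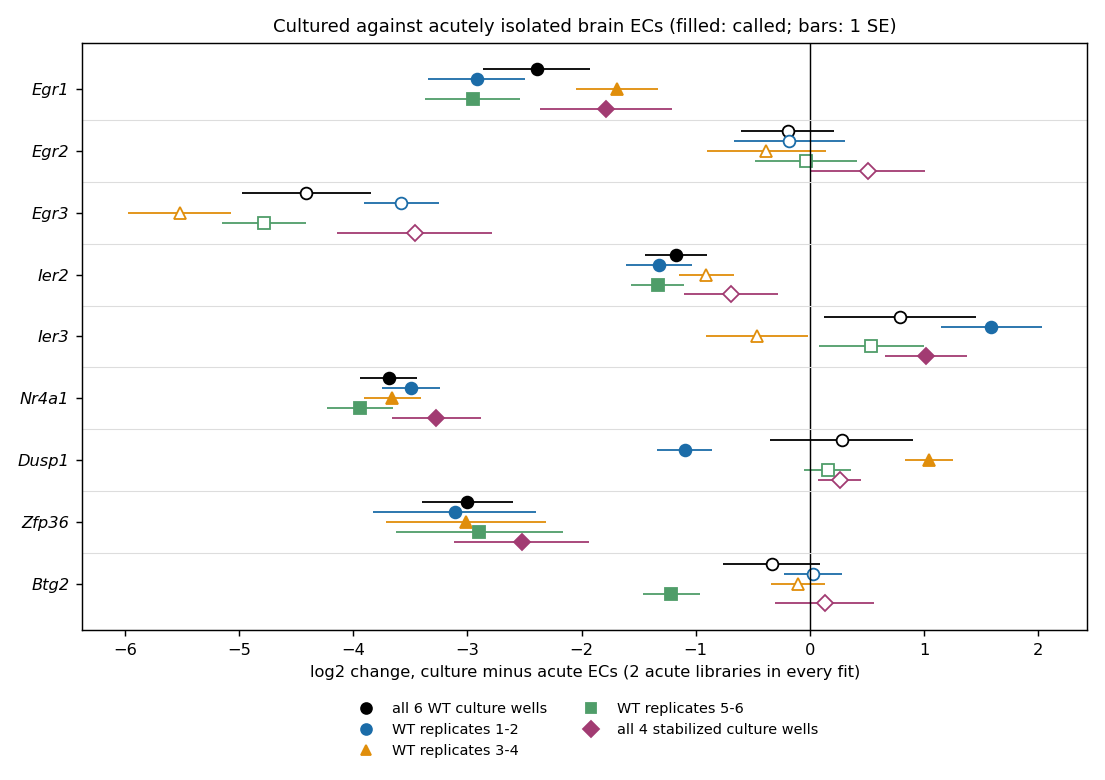
Log2 change of counts, culture minus acute ECs (x axis), for each gene (rows), with 1 symbol for each set of culture wells fitted against the same 2 acute EC libraries, bars of 1 SE, and filled symbols for called genes. Nr4a1 (-3.69) and Zfp36 (-3.00) are filled on the left in every set of WT wells, while Dusp1 is filled on the left for WT replicates 1 and 2 and on the right for replicates 3 and 4.

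The length of the transcripts bears on these values because Salmon corrects it for sequence and position bias in each library. The effective length of Nr4a1 was 659 to 1128 bases in acute ECs and 1884 to 2587 in WT cultures, that of Ier3 528 to 556 and 950 to 1050, and that of Btg2 1544 to 1645 and 2408 to 2803. For Zfp36 it was 1411 to 1459 and 2216 to 2616. One of the 2 protein-coding transcripts of Zfp36 led in the sorted libraries (85.6% to 93.6% of counts) and in WT replicates 1 and 2, and the other in the remaining cultures (63.2% to 93.4%). The changes with the length offset, given above for Nr4a1 and Zfp36, take these lengths into account. With it the log2 change was 0.99 ± 0.70 for Ier3 (adjusted p = 0.273) and -0.030 ± 0.45 for Btg2 (adjusted p = 0.962), and neither was called.

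Other genes of the response, from lists of relatives and regulators, moved in both directions. Of 14 family relatives tested, 2 were called higher and 3 lower. Dusp5, a phosphatase of ERK, was higher in culture by 8.17 ± 1.40 on the log2 scale (adjusted p = 0.00196), with 37 and 0 counts in acute ECs. Nr4a2, the receptor closest to Nr4a1, was lower by 5.23 with an SE of 0.45 (adjusted p = 0.000102). Zfp36l1, the relative of Zfp36, was lower by 4.90 and Ier5l higher by 1.80. Of 9 regulators, 1 was called higher, Srf at 2.16 ± 0.68, and 4 lower, led by its partners Elk4 at -2.77 ± 0.47 and Mrtfb at -2.73 ± 0.37. Of 23 other immediate early genes, 9 were called higher and 1 lower. Cebpb, a transcription factor of acute responses, was at 5.89 ± 0.58 (adjusted p = 0.000171), Ptgs2 (cyclooxygenase-2) at 4.65 ± 1.28 and Irf1, an interferon response factor, at -1.72 ± 0.60. Of 14 heat shock genes, 3 were called higher, led by Hspa8 (1.89) and Dnajb4 (1.71). On rescaled TPM Hspa8 went the other way, at -0.26, with overlapping groups. Another 3 were called lower, led by Hspa1b, the inducible HSP70, at -6.32 ± 0.66 and Hsph1 at -1.55. Hspa1b is nearly identical to Hspa1a, so the split of reads between them is uncertain. Of 8 AP-1 genes, 1 was called lower, Jun at -2.41 ± 0.40 (adjusted p = 0.00178), and 0 higher. The medians of these lists were -0.01 (relatives), -1.12 (regulators), 0.62 (other immediate early genes), 0.09 (heat shock) and 0.36 (AP-1), beside 0.10 for all genes.

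Of the 6 EC markers, 3 were called lower in WT cultures than in acute ECs and 0 higher, with a median of -1.92. The largest changes were those of Kdr (-3.50 ± 0.47) and Tek (-3.38 ± 0.52). Markers of other cell types moved with the comparison too. The 5 pericyte and smooth muscle markers summed to a rescaled TPM of 812 to 905 in acute ECs and 6.28 to 32.9 in the cultures, with 4 of 5 called lower. The 5 neuron markers summed to 52.5 to 90.1 in acute ECs and 9.96 to 37.6 in WT cultures (1 of 5 called lower), and the 5 oligodendrocyte markers to 84.2 to 91.7 and 0.57 to 2.71 (1 of 3 tested called lower). The 5 erythrocyte markers summed to 16900 and 101500 in the acute EC libraries and to at most 2.45 in the WT wells, where 2 to 5 of them were at 0 in each well. Astrocyte markers (7.59 to 53.9) and microglia markers (1.15 to 9.03, with 1 or 2 of 5 at 0) were low in acute ECs. Their part in the changes of the 9 genes was not tested. In these bulk libraries, fewer cells of a type and less RNA per cell cannot be told apart.

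The next comparison, acute ECs against GFP-negative cells, set ECs beside the remaining brain cells after the same dissociation and sort. ECs held more Ier2, Ier3, Dusp1, Nr4a1 and Btg2, with the widest gaps for Ier2 and Ier3. Egr1 was about as high in GFP-negative cells as in ECs, and Egr2 was not called in either direction. Of the 9 genes, 5 were called higher in ECs and 0 lower, where 8.30% and 7.56% of 15102 genes tested were. The median change was 1.42, and -0.06 over all genes tested.

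Ier2 had a rescaled TPM of 19.1 and 17.5 in the GFP-negative libraries, well below both EC libraries. The log2 change, ECs minus GFP-negative cells, was 2.88 ± 0.41 (adjusted p = 0.00552), and Ier2 was called higher under all 15 alternative settings. Ier3 was at 13.7 and 24.7 in GFP-negative cells, also below both EC libraries. Its change was 2.89 ± 0.60 (adjusted p = 0.0173). These were the only genes of the 9 called with the length offset, at 2.77 and 2.96.

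Dusp1 had a rescaled TPM of 65.7 and 99.0 in GFP-negative cells, and its change was 1.83 ± 0.33 (adjusted p = 0.0106). Nr4a1 was at 87.0 and 116, just under the lower EC library, and its change was 1.42 ± 0.32 (adjusted p = 0.0227). Btg2 was at 50.1 and 68.7 and its change was 1.30 ± 0.34 (adjusted p = 0.0328). For all 3 genes the EC libraries lay above the GFP-negative ones. With the length offset the changes of Dusp1, Nr4a1 and Btg2 were 1.81, 1.57 and 1.48, with adjusted p of 0.0574, 0.0993 and 0.078, and none was called.

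Egr3 had a rescaled TPM of 1.25 and 3.49 in GFP-negative cells. Its change was 2.38 ± 0.68 (adjusted p = 0.0445), called with the minimum on rescaled TPM but not on deposited TPM. On rescaled TPM, 6 of the 9 genes (Egr3, Ier2, Ier3, Nr4a1, Dusp1 and Btg2) lay higher in both EC libraries than in both GFP-negative ones, where 18.1% of genes tested did, and 0 lower, where 43.8% did. Zfp36 was at 55.9 and 74.9 in GFP-negative cells, above EC replicate 1 and below EC replicate 2. Its change of 1.29 ± 0.62 (adjusted p = 0.176) rested on EC replicate 2: it was -0.00 ± 0.39 without that library and 1.85 ± 0.34 (adjusted p = 0.0155) without EC replicate 1.

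Egr1 was at a rescaled TPM of 72.3 and 92.7 in GFP-negative cells, between the EC libraries, and its change was 0.54 ± 0.39 (adjusted p = 0.354). Egr2 was at 2.01 and 8.36, and its change was -1.46 ± 0.78 (adjusted p = 0.217). It had 280 and 604 counts there and 222 and 100 in ECs, spread over different annotated transcripts in the 4 libraries. The number of genes called higher depended on single libraries. It was 6 without EC replicate 1, 3 without EC replicate 2, 1 without GFP-negative replicate 1 (Ier2 alone) and 3 without GFP-negative replicate 2, the 3 being Ier2, Ier3 and Dusp1 both times.

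**Figure D3:**
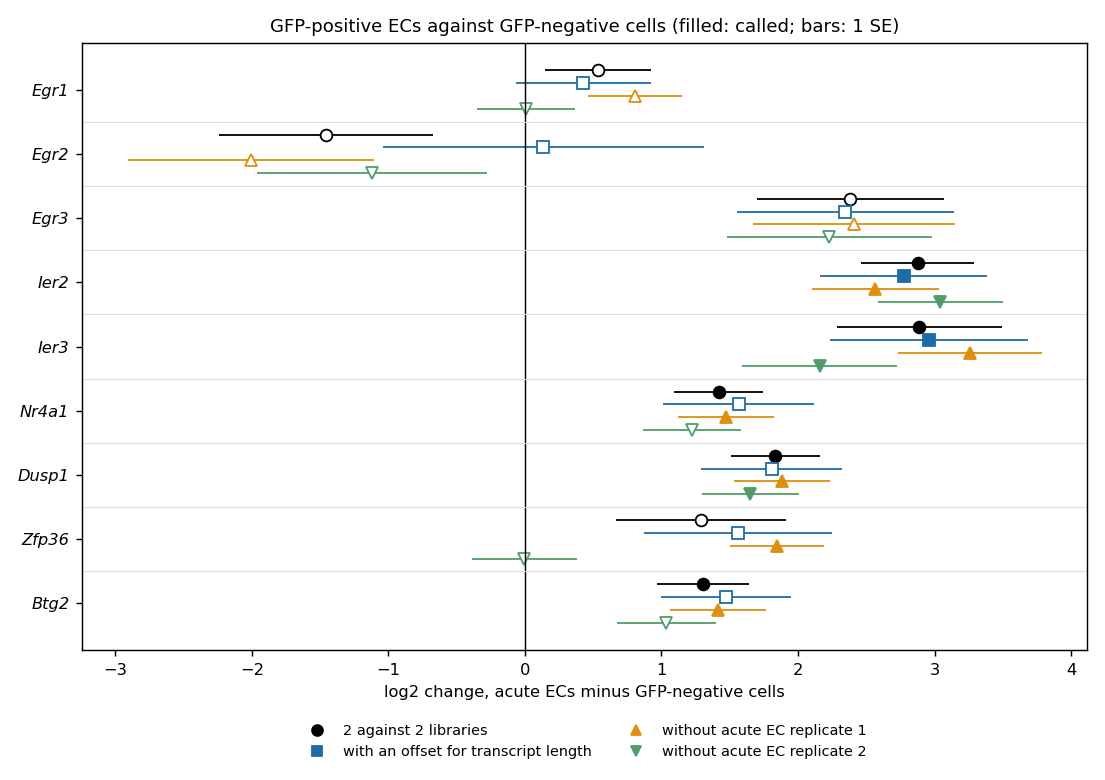
Log2 change of counts, acute ECs minus GFP-negative cells (x axis), for each gene (rows) over all 4 libraries, with the length offset, and without each EC library, with bars of 1 SE and filled symbols for called genes. Ier2 (2.88) and Ier3 (2.89) are filled in all 4 fits, and Zfp36 moves from 1.85 to -0.00 with the EC library left out.

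The other lists held more genes called higher in ECs than lower. Of 14 family relatives, 6 were called higher and 0 lower, led by Btg3 (3.36 ± 0.69), a relative of Btg2, and Nr4a2 (2.29 ± 0.57). Of 9 regulators, 4 were called higher and 0 lower, led by Elk3 (4.30 ± 0.38), a partner of SRF that is abundant in ECs, and Mrtfb (3.70 ± 0.33). Of 24 other immediate early genes, 8 were called higher and 0 lower, led by Irf1 (4.04 ± 0.60) and the kinase Plk2 (3.98 ± 0.36). Of 14 heat shock genes, 2 were higher, Hspb1 (2.92 ± 0.44) and Dnaja1 (1.01 ± 0.30), and Hsp90aa1 was lower (-1.22 ± 0.35). Of 8 AP-1 genes, Jun alone was called (2.04 ± 0.61, adjusted p = 0.0498). The medians were 1.12, 0.74, 0.95, 0.20 and 0.78 for these 5 lists in this order, beside -0.06 over all genes. All 6 EC markers were called higher in ECs, and the markers of neurons (2 of 5), astrocytes (5 of 5), oligodendrocytes (5 of 5) and microglia (3 of 5) lower. Fibroblast markers (2 of 5) and pericyte and smooth muscle markers (2 of 5) were called lower too. The latter had a median of -0.68 and summed to a rescaled TPM of 812 to 905 in ECs and 1973 to 2525 in GFP-negative cells. Of the erythrocyte markers 1 of 5 was called lower, but their median was 1.76.

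Within both kinds of sorted cells, most of these genes had a higher rescaled TPM in replicate 2 than in replicate 1. In ECs, 8 of the 9 genes had a higher rescaled TPM in replicate 2, Ier2 being the exception. Of the 11601 genes that reached a deposited TPM of 5 in some library, 59.3% did and 38.9% went the other way. Egr2 and Egr3 are not among those 11601 genes. The higher value of Egr2 in EC replicate 2 rests on its short effective length there, as its counts relative to the library total were lower than in replicate 1. In GFP-negative cells the same 8 of 9 were higher in replicate 2, where 56.2% of the 11601 genes were and 43.1% went the other way. Same-numbered EC and GFP-negative libraries may come from the same sort, so the 2 counts may not be independent. The largest step was that of Zfp36 in ECs, from 54.8 to 252. There is no replicate for this difference, so it has no test. Erythrocyte markers rose between the same libraries, from a sum of 16900 to 101500 in ECs, and their part in it was not tested.

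The last main comparison, stabilized against WT cultures, asked what stabilization of beta-catenin, the effector of canonical Wnt signaling, did in culture. Over all 10 wells, none of the 9 genes was called. Wells made by method A were different: there Egr1, Ier2, Dusp1 and Zfp36 were called higher in stabilized wells, and Ier3 alone had a negative change, of -0.41. With the length offset Egr1 (1.80) and Dusp1 (1.11) were still called in these wells, while Ier2 (0.94) and Zfp36 (0.94) were under 2-fold and not called. In wells made by method B with reads of 36 cycles, which leaves out WT replicates 3 and 4, 0 of the 9 genes were called. Stabilized method A wells and stabilized method B wells came from different experiments, so method and experiment cannot be told apart.

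Over all wells the log2 changes, stabilized minus WT, ran from -0.03 for Dusp1 to 0.95 for Egr3, with adjusted p of at least 0.457. The median was 0.47, and -0.04 over the 12958 genes tested. By the same edgeR test 0 genes in all, or 0.0%, were called in either direction. At an unadjusted p under 0.05 there were 611 higher and 733 lower, and DESeq2 called 15 higher and 3 lower. The rescaled TPM of the groups overlapped for all 9 genes, while 2.71% of genes tested lay higher in every stabilized well than in every WT well and 1.58% lower.

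Egr1 had a rescaled TPM of 71.5 and 94.5 in stabilized replicates 1 and 2, against 17.3 and 26.3 in the WT wells of method A, and of 22.3 and 22.5 in stabilized replicates 3 and 4, against 23.7 and 17.2 in the WT wells of method B with the same read type. The gap was thus seen in method A only. In the method A wells alone the log2 change was 1.71 ± 0.20 (adjusted p = 0.00113), and in the method B wells 0.12 ± 0.13 (adjusted p = 0.496). In these fits, 5.39% of 12848 genes were called higher and 0.918% lower for method A, and 1.08% and 0.280% of 12835 for method B.

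Ier2 was at a rescaled TPM of 120 and 106 in stabilized replicates 1 and 2, above the 48.0 and 60.4 of the WT wells, and at 43.5 and 41.5 in stabilized replicates 3 and 4, level with the 42.5 and 46.7 of WT replicates 5 and 6. Its change in method A was 1.07 ± 0.16 (adjusted p = 0.00224). Dusp1 was at 384 and 385 in stabilized replicates 1 and 2, over the 148 and 178 of WT, and at 361 and 356 in replicates 3 and 4. The stabilized wells of both experiments were thus close to each other, while the WT wells were not. The change of Dusp1 was 1.23 ± 0.11 in method A (adjusted p = 0.000675) and 0.20 ± 0.06 in method B (adjusted p = 0.0448, under 2-fold).

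Zfp36 was at a rescaled TPM of 46.6 and 49.5 in stabilized replicates 1 and 2 and 17.7 and 17.4 in replicates 3 and 4, on either side of the narrow range of the WT wells. Its change was 1.04 ± 0.12 in method A (adjusted p = 0.00109) and -0.36 ± 0.09 in method B (adjusted p = 0.0258). Egr2 was at 3.67, 4.56, 1.54 and 1.67 in stabilized replicates 1 to 4, and its change in method A of 1.11 ± 0.18 (adjusted p = 0.00298) missed the call at a TPM under 5. Nr4a1 was at 27.3, 26.3, 10.0 and 9.22 and Egr3 at 2.27, 3.47, 0.71 and 0.62, with changes in method A of 0.64 ± 0.10 and 0.78 ± 0.24, both under 2-fold. Ier3 was at 348, 339, 230 and 218, and its change in method A was -0.41 ± 0.08 (adjusted p = 0.00451), also under 2-fold. Btg2 was at 292, 278, 98.3 and 108.6, above the WT wells of method A by 0.55 ± 0.09 and above WT replicates 5 and 6 by 0.64 ± 0.08, under 2-fold each. WT replicates 3 and 4, at 135 and 125, lay above the stabilized wells of method B.

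On rescaled TPM, 8 of the 9 genes lay higher in both stabilized wells of method A than in both WT wells, and Ier3 lower. Of the 11601 genes that reached a deposited TPM of 5 in some library, 46.4% lay higher and 30.3% lower. Egr2 and Egr3 are not among those 11601 genes, which also give the shares for method B. For method B, against WT replicates 5 and 6 alone, Ier3, Dusp1 and Btg2 lay higher (34.4%) and Egr2 and Zfp36 lower (31.4%), while Dusp1 and Btg2 lay below WT replicates 3 and 4, which had another read type. The difference between the methods was tested as an interaction on the 8 wells with reads of 36 cycles, as the change in method B minus that in method A. It was -1.56 ± 0.26 for Egr1 (adjusted p = 0.0016), -1.20 ± 0.22 for Egr2, -1.09 ± 0.22 for Ier2, -1.01 ± 0.15 for Dusp1 (adjusted p = 0.000814) and -1.38 ± 0.16 for Zfp36 (adjusted p = 0.000319). These 5 genes were past both the adjusted p and the 2-fold limit with a negative sign, as were 9.09% of 13356 genes, and 6.25% had a positive one. Ier3 (0.70 ± 0.11, adjusted p = 0.00108) and Nr4a1 (-0.59 ± 0.18, adjusted p = 0.0258) were past the adjusted p only. Egr3 (-0.80 ± 0.35, adjusted p = 0.0892) and Btg2 (0.11 ± 0.14, adjusted p = 0.539) were past neither.

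**Figure D4:**
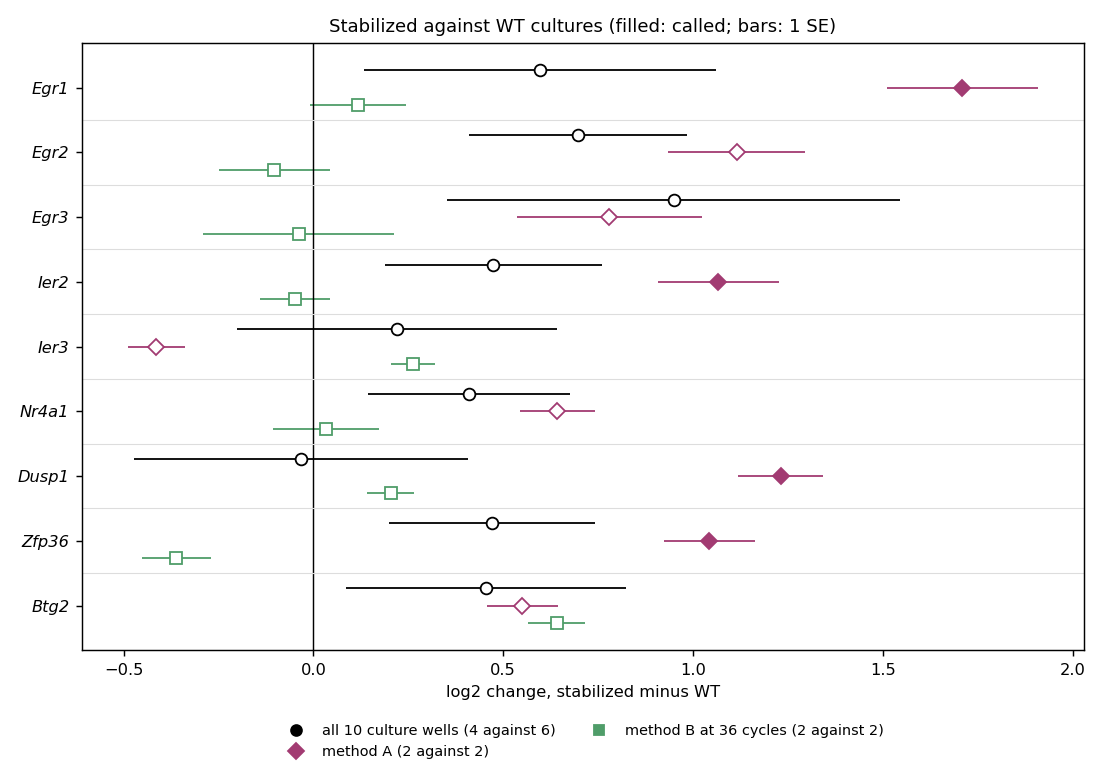
Log2 change of counts, stabilized minus WT cultures (x axis), for each gene (rows) over all 10 wells, in method A wells and in method B wells of the same read type, with bars of 1 SE and filled symbols for called genes. Egr1 (1.71), Ier2 (1.07), Dusp1 (1.23) and Zfp36 (1.04) are filled for method A, and no gene is filled for method B or over all wells.

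None of the other lists held a called gene over all wells: 0 of 14 family relatives, 9 regulators, 8 AP-1 genes, 23 other immediate early genes and 14 heat shock genes. Pericyte and smooth muscle markers summed to a rescaled TPM of 6.28 to 32.9 over the cultures of both genotypes, and 0 of the 4 tested were called. The EC markers also did not pass, with 0 of 6 called and a median change of 0.43.

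Stabilized cultures against acute ECs shared the 2 acute libraries with the first comparison, so its values are set beside those above and are no second sample of them. Of the 9 genes, Ier3 was called higher and 3 lower, where 15.1% and 11.0% of 13888 genes tested were. Nr4a1 was at -3.27 ± 0.39 (adjusted p = 0.00081), beside -3.69 in WT cultures, and called lower under all 20 alternative settings. Zfp36 was at -2.52 ± 0.59 (adjusted p = 0.0107), beside -3.00, and Egr1 at -1.79 ± 0.58 (adjusted p = 0.0351), beside -2.40. Egr3 was at -3.46 ± 0.68 (adjusted p = 0.00541), beside -4.41, again with a deposited TPM under 5. Ier3 was at 1.01 ± 0.36 (adjusted p = 0.0474), and was not called without acute EC replicate 1 (0.53) nor without any 1 of the 4 stabilized wells. Without acute EC replicate 2, Egr1 (-1.23) and Zfp36 (-1.20) were not called, and without replicate 1 Egr1 (-2.17) was not. Egr1 was also not called without stabilized replicate 3 (-1.56, adjusted p = 0.0596) or replicate 4 (-1.55, adjusted p = 0.059), nor with the length offset (-0.86). Ier2 (-0.69 ± 0.41), Egr2 (0.51 ± 0.50), Dusp1 (0.26 ± 0.19) and Btg2 (0.13 ± 0.43) were not called. On rescaled TPM, Ier3 and Dusp1 lay higher in all 4 stabilized wells than in both acute libraries (37.1% of genes tested did), and Egr3, Nr4a1 and Zfp36 lower (28.3% did).

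The promoters of the genes were open in every library, sorted or cultured. Each gene was given a single annotated start, that of its protein-coding transcript with the highest mean TPM over the RNA-seq libraries. After the study's filter (fold enrichment over 2, −log10 q over 2), 8 of the 9 genes had an ATAC-seq peak within 250 bases of this start in all 10 libraries. Of 21726 starts, 44.6% did. Egr3 was the exception, with 0 of 10, and had a peak within 1000 bases of the start in all 10, so that all 9 genes did, where 47.2% of starts did. With stricter limits (fold enrichment over 4, −log10 q over 10) it was 7 of 9, since Zfp36 dropped out too, where 38.2% of starts passed. For Egr3 the start used was at base 70077314, its gene begins at 70077203, and its peaks ended between 70077000 and 70077043. For Zfp36 it was the start of the transcript that led in the sorted libraries, not of the transcript that led in most cultures. Peaks were called in each library alone, and the number kept ranged from 31779 to 98732, so heights are given relative to the library.

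Fold enrichment at Nr4a1 was 11.7 and 12.0 in acute ECs, 8.83 to 16.7 in WT cultures and 12.8 and 14.3 in stabilized cultures. Divided by the median of all starts with a peak in the same library, it was 0.93 to 1.14, the highest range of the 8 genes with a peak. On this relative scale Nr4a1 was at 0.928 to 0.938 in acute ECs and 0.949 to 1.11 in WT cultures. Its ranges did not overlap between these groups, by a narrow gap that was not tested, while those of the other 7 genes overlapped. The share of all starts without overlap was not computed, so nothing particular to Nr4a1 can be read from this. Btg2 (0.80 to 1.09) and Egr2 (0.78 to 1.03) were close to the library median as well. Ier3 (0.55 to 0.89), Dusp1 (0.42 to 0.74) and Egr1 (0.46 to 0.67) were below it. Ier2 (0.37 to 0.47) and Zfp36 (0.24 to 0.50) had the lowest peaks at the starts used.

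**Figure D5:**
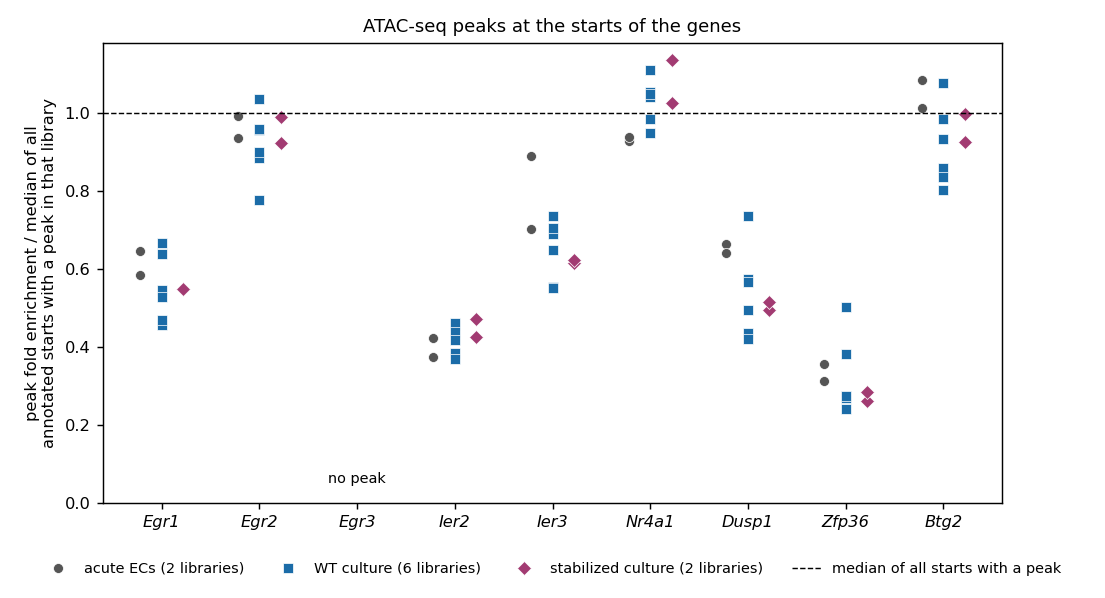
Fold enrichment of the ATAC-seq peak at the annotated start of each gene (x axis), divided by the median of all annotated starts with a peak in the same library (y axis), with 1 symbol per library and a dashed line at the library median. Nr4a1, Btg2 and Egr2 lie near the line at 0.78 to 1.14, Nr4a1 slightly lower in acute ECs than in the cultures. Zfp36 lies lowest at 0.24 to 0.50, and Egr3 has no peak within 250 bases of the start used.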

How the data were processed

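RNA-seq covered 14 libraries of mouse brain cells and ATAC-seq 10. RNA-seq reads were quantified by the authors with Salmon 0.14.0, which corrected for bias of sequence, GC content and position, using transcripts of GENCODE M21. For each of 140198 transcripts the deposited files give its estimated count, its TPM and its effective length. ATAC-seq reads were mapped by the authors to GRCm38 with HISAT2 2.1.0, duplicates were dropped, and MACS2 2.1.2 was run on single libraries. The deposited peak lists give a score, a fold enrichment over background (a ratio) and the −log10 of p and q for each peak.

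Estimated counts and TPM were added up by gene identifier, and counts were rounded to whole numbers. For 27 symbols with several identifiers, only that with the highest mean TPM was kept. Rescaled TPM is the deposited TPM with nuclear protein-coding genes alone as the total of each library. Groups were taken from titles and genotypes of the records. The record of stabilized RNA-seq replicate 4 names genomic DNA as its molecule, and its title and protocol were followed. The test on counts was the quasi-likelihood test of edgeR 4.0.16 (R 4.3.3), after filterByExpr and TMM scaling, each comparison on its own libraries, with Benjamini-Hochberg adjustment. The study's call rule was kept, with edgeR in place of its own tool. SE is the log2 change over the square root of F. The procedure was tested on simulated data. Alternatives were DESeq2 1.42.0, limma 3.58.1 on log2(TPM + 1) and log2(TPM + 0.1), library size scaling, no filter, an offset for effective length, no TPM minimum, single libraries left out and single experiments. Rescaled TPM, the stabilized experiments alone against acute ECs and the length offset within each isolation method were added after seeing the data.

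Named genes are the 9 genes, the 2 genes with the largest change in each direction among those called in each other list, and the 5 genes most like the mean of the 9. The genes and lists were chosen with earlier results of these data known. Samples without a processed file were not analysed here.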

Additional observations from a re-analysis of the deposited data

Results flagged for a closer look

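The difference between isolation methods in the effect of beta-catenin stabilization passed the adjusted p in edgeR's test of the interaction for 7 of the 9 genes, and 6624 of 13356 genes did. As the change in method B minus that in method A, on the log2 scale and in wells with reads of 36 cycles, it was -1.56 for Egr1 (adjusted p = 0.0016), -1.20 for Egr2 (0.00233), -1.09 for Ier2 (0.00341), -1.01 for Dusp1 (0.000814) and -1.38 for Zfp36 (0.000319). It was -0.587 for Nr4a1 (0.0258) and 0.696 for Ier3 (0.00108). Each of these rests on 2 wells per genotype and method, which come from a single experiment each, and on WT replicates 5 and 6 being of method B, as the study's methods have it. The WT wells also differed in genotype between the methods, which cannot be told apart from method.

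A single well stood apart from its group by Dixon's ratio of gap to range. Egr2 was at a rescaled TPM of 1.31 in WT culture replicate 4, the lowest of the 6 wells, with a ratio of 0.631. It was 1 of 18 groups tested, and chance gives about 1 in 20.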

How the results depend on the processing

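Over the 4 comparisons and their alternatives, 633 of 765 log2 changes of the 9 genes kept their direction and their side of the threshold, 66 lost it, 16 gained it, 44 changed sign without a call on either side, and 6 reversed. Of 174 counts of called genes, 36 moved by over 1.5 times. Nr4a1 was called lower in both comparisons of culture with acute ECs under every alternative run, and Ier2 was called higher in ECs, against GFP-negative cells, under every alternative run. The cause of the changes that follow was not tested. Depth limits Egr2 and Egr3.

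For WT culture against acute ECs, Ier2 was at 0.0688 and 0.0606 with limma on log2(TPM + 1) and log2(TPM + 0.1), and Dusp1 at -1.10 with WT replicates 1 and 2 only. The 9 genes then gave 1 called higher with WT replicates 1 and 2 only (Ier3) and 1 with replicates 3 and 4 only (Dusp1). They gave 2 called lower with the length offset and with limma on rescaled TPM, and 1 with limma on either scale of deposited TPM. For ECs against GFP-negative cells, 3 of the 9 were called higher with library size scaling, 2 with the length offset and with limma on log2(TPM + 0.1), and 1 with limma on log2(TPM + 1) and on rescaled TPM. With a library left out it was 1 to 6. For stabilized against WT culture, method A gave 4 called higher and 2 with the length offset, with Dusp1 at 1.23 and 1.11. For stabilized culture against acute ECs, 0 were called higher with DESeq2, library size scaling, no filter, limma on log2(TPM + 1), all 14 libraries in 1 fit, wells summed, and either stabilized experiment alone, and 0 to 1 with a library left out. Called lower was 1 with limma on all 3 scales and with stabilized replicates 1 and 2 only, and 1 to 3 with a library left out. The interaction passed both limits for 3 of the 9 with library size scaling, not 5.

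Replicate numbers are shared between groups, but no record ties same-numbered samples to an animal, and the deviations of same-numbered samples correlated from -0.04 to 0.54, not over 0.1 for every number. The numbers were therefore not taken as pairs. With the replicate number as a block, 1 of the 9 was called higher in WT culture against acute ECs (Ier3, at 1.71), with Dusp1 at -1.10, and wells whose number has no partner do not bear on these values.

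Over all genes, counts that moved by over 1.5 times were as follows. WT culture against acute ECs called 1866 higher and 1409 lower, against 3160 and 2825 without the TPM minimum, 2867 higher with WT replicates 3 and 4 only, and 897, 914 and 834 lower with limma on both scales of deposited TPM and with wells summed. ECs against GFP-negative cells called 1254 higher and 1142 lower, against 649, 460, 599 and 515 higher with the length offset and limma on 3 scales, 669 and 663 without GFP-negative replicate 1 and 2, and 2980 and 1819 lower without the TPM minimum and with it on rescaled TPM. Stabilized against WT called 0, against 15 and 3 with DESeq2, 149 and 24 with the replicate block, 66 and 10 with method as a factor, 692 and 118 in method A, 138 and 36 in method B, 681 and 130 in method A with the length offset and 144 and 41 in method B with it. Stabilized culture against acute ECs called 2091 and 1527, against 3408 and 3209 without the TPM minimum, and 761 and 836 lower with limma on deposited TPM. Library size scaling moved the median change of all genes from 0.10 to 0.30 for WT culture against acute ECs and from -0.06 to -0.44 for ECs against GFP-negative cells.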

Other observations

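Over the 14 RNA-seq libraries, the genes whose log2(TPM + 1) followed the mean of the 9 genes most closely, of 11594 genes that reached a TPM of 5 in some library, were Smarce1 (Pearson r = 0.961), Brap (0.958), Cep68 (0.953), Ick (0.952) and Gorab (0.949). On rescaled TPM they were Med4 (0.897), Scn3b (0.892), Smpd5 (0.883), Zbtb24 (0.880) and Sipa1 (0.876), and the lists had 0 genes in common. The libraries of a group share their preparation and read type, and the share of TPM held by noncoding RNA differs between libraries, so these values are descriptions and have no p. Among the 9 genes themselves, on rescaled TPM, r with the mean of the other 8 was 0.728 for Egr3, 0.674 for Zfp36, 0.597 for Egr2, 0.585 for Egr1, 0.569 for Btg2, 0.427 for Ier2 and 0.363 for Nr4a1. It was 0.014 for Dusp1 and -0.050 for Ier3.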
